A study of Bos taurus with 56 samples.

Results

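Open chromatin of cattle morulae and blastocysts that, by their labels, were produced in vivo was compared through the peak lists of both stages. All 57039 peaks of the in vivo morula list and all 2587 peaks of the in vivo blastocyst list were taken, 59626 of the 673059 peaks in the 11 lists of the series, and each was classed as shared with the other list (1 bp of overlap or more) or found in 1 list only. The assay was ATAC-seq, in which a transposase cuts and tags accessible DNA, so that sequenced fragments pile up as peaks over open regions. Each of the 2 stages was represented by 4 libraries made from pooled embryos of Bos taurus, and the authors merged the peaks of the 4 libraries into 1 list. No treatment, genotype or allele is named in the labels for either group, and the sources used here give neither the breed and sex of the embryos nor how they were collected. The other lists used here as reference came from GV and MII oocytes, from embryos at the 2-cell, 4-cell, 8-cell and 16-cell stages, from day 14 elongating embryos (6 libraries), and from a second group of morulae (6 libraries) and of blastocysts (3 libraries) whose labels do not say how the embryos were produced. Those 2 groups are called unlabelled below.

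The morula is a compacted ball of blastomeres that follows the activation of the embryonic genome. In the blastocyst a fluid-filled cavity has formed and the cells have separated into the inner cell mass, which gives rise to the embryo proper, and the trophectoderm, the outer layer that later forms the placenta. The bovine embryo then elongates before it attaches to the uterus, and the elongating embryo is mostly trophectoderm. Accessible regions in such embryos include promoters, enhancers and repeats. Peaks are named here by position on the cattle build UMD3.1, since no gene annotation of that build was used, and the stage labels could therefore not be checked against marker genes.

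Each list gives a chromosome, a start and an end per peak, without height or read count. The depth per library is unknown, the spread between the 4 libraries of a stage could not be computed, and no test of a difference was possible. Differences below are differences between single merged lists, and the part that embryos, depth and peak calling had in the shorter blastocyst list cannot be told apart. Intervals of shares are exact Clopper-Pearson intervals at 95%, and those of median widths are 95% intervals read from the ranked widths. Both cover counting error only and treat neighbouring peaks as independent.

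The in vivo morula list was 22.0 times as long as the in vivo blastocyst list and covered 29.0 times as many bases, 42.5 Mb (1.60% of the 2661 Mb spanned by the lists) against 1.47 Mb (0.0551%). A morula peak lay at 882 of the 2587 blastocyst peaks (34.1%, interval 32.3% to 36.0%) and at none of the other 1705 (65.9%). In the other direction 885 morula peaks (1.55%, interval 1.45% to 1.66%) overlapped a blastocyst peak and 56154 (98.4%) were found in the morula list only. The 34.1% counts peaks touched by 1 bp or more, whereas the 1.60% covered by morula peaks is a share of bases. A peak is touched more readily than a single base is covered, so the 1.60% is too low a yardstick. The 1.55% is bounded by the length of the blastocyst list. Some regions recur in lists of many stages, and those with peaks in 2 or more of the GV, MII, 2-cell, 4-cell and unlabelled blastocyst lists are called recurring regions. Without them, the shares were 20.1% of blastocyst and 0.665% of morula peaks. With an overlap of 50% of both peaks required, the blastocyst share was 22.9%. In the unlabelled lists 32.8% of blastocyst peaks (interval 31.2% to 34.4%) and 1.13% of morula peaks were shared.

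The 3 kinds of peak differed in how often they recurred in the other 9 lists. Shared peaks were found across development. Of the 882 shared blastocyst peaks, 30.8% had a peak in GV oocytes, 16.4% in MII oocytes, 46.8% in 2-cell and 54.2% in 4-cell embryos, 66.2% in 8-cell and 71.3% in 16-cell embryos, 87.4% in unlabelled morulae, 68.9% in unlabelled blastocysts and 88.7% at day 14. Among them 638 (72.3%) lay in 4 or more other lists, 105 (11.9%) in all 9, and only 29 (3.29%) in none. The MII oocyte list, with 730 peaks, and the 2-cell list, with 2636, are among the shortest of the series, so these shares were reached against few peaks. Recurring regions held 497 of the 882 (56.3%). Of the 385 outside them, 36.4% had a peak in 8-cell embryos, 47.0% in 16-cell embryos, 76.4% in unlabelled morulae, 36.4% in unlabelled blastocysts and 78.2% at day 14. Recurring regions were chosen in part by the unlabelled blastocyst list, so leaving them out lowers that share by construction.

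Peaks of the morula only were rarely matched in the early lists and often from the 8-cell list on. The GV, MII, 2-cell and 4-cell lists hold 4382, 730, 2636 and 5810 peaks, and the unlabelled blastocyst list 3397. The 8-cell, 16-cell and unlabelled morula lists hold 59186, 75925 and 88858. The short lists bound their shares, so the rise at the 8-cell list cannot be told apart from list length. Of the 56154, 1.42% had a GV oocyte peak, 0.0570% an MII peak, 0.468% a 2-cell peak and 1.72% a 4-cell peak. The share was 27.0% in 8-cell embryos, 38.9% in 16-cell embryos and 60.4% (interval 60.0% to 60.8%) in unlabelled morulae. In unlabelled blastocysts it was 0.208%, or 117 peaks, and at day 14 it was 49.4%. With classes drawn again under 50% of both peaks, the unlabelled morula share was 35.8% and the day 14 share 21.5%. The most frequent combination, after the 15205 peaks (27.1%) found in no other list, was a peak in 8-cell and 16-cell embryos, unlabelled morulae and day 14 embryos, with 8387 peaks (14.9%) and a median width of 1034 bp.

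Blastocyst only peaks were mostly found once. No other list held a peak at 1173 of the 1705 (68.8%, interval 66.5% to 71.0%). Blastocysts without the label had a peak at 297 of them (17.4%, interval 15.6% to 19.3%), unlabelled morulae at 238 (14.0%) and day 14 embryos at 430 (25.2%). With classes drawn again under 50% of both peaks, the unlabelled blastocyst share was 11.4% and the day 14 share 16.1%. With classes drawn again without recurring regions, they were 7.79% and 16.2%. In the early lists the shares were 4.22% for GV and 1.47% for MII oocytes, and 7.45% for 2-cell and 9.44% for 4-cell embryos. Each was above that of morula only peaks, an order set in part by class size. The 730 MII and 2636 2-cell peaks can meet only a small part of the 56154 morula only peaks. The day 14 list has 372509 peaks and covers 4.66% of the bases of the span. Blastocyst only peaks were found there less often than morula only peaks (49.4%) or shared peaks (88.7%), a difference that was not tested. The order against morula only peaks held for the whole classes and for narrower peaks. Under 400 bp the day 14 share was 19% of 1156 blastocyst only and 30.7% of 16374 morula only peaks. From 400 to under 800 bp it was 34.1% of 502 and 45.1% of 22492. The order was reversed from 800 to under 1600 bp, with 81.4% of 43 and 68.7% of 13196. Inside the 10 fullest blastocyst windows of 1 Mb it was reversed too, with 88.5% of 148 and 64.5% of 138. Outside these windows the order held, with 19.2% of 1557 and 49.3% of 56016.

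**Figure D1:**
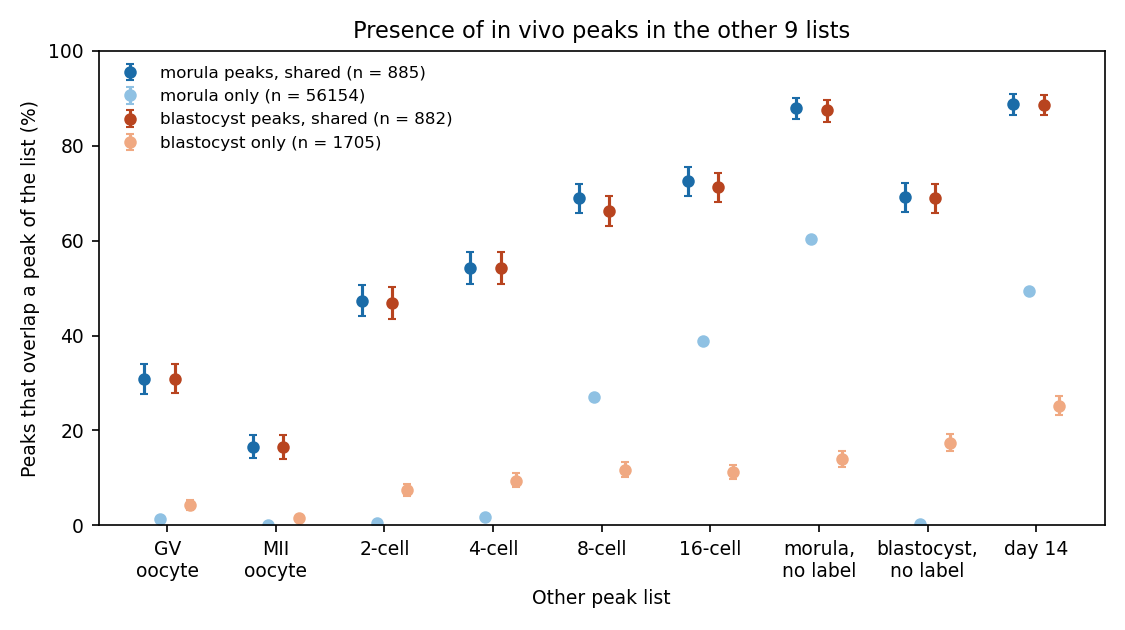
Share of the in vivo peaks of each class (vertical axis, %) that overlap a peak of each of the other 9 lists (horizontal axis, in developmental order), with exact 95% intervals. Shared peaks sit highest in every list, from 16.4% in MII oocytes to 88.8% at day 14. Morula only peaks are near 0 in the early lists and in unlabelled blastocysts, all of them short lists.

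Width separated the classes as well. The median blastocyst only peak measured 348 bp (interval of the median 342 to 354 bp), and the 90th percentile was 559 bp. Shared blastocyst peaks had a median of 647 bp (605 to 685 bp), 1.86 times as wide. In the morula list the shared peaks had a median of 740 bp (694 to 783 bp) against 548 bp (544 to 552 bp) for morula only peaks, a ratio of 1.35. The narrowest peak was 241 bp in the blastocyst list and 268 bp in the morula list, so the lists had unlike lower bounds. With both lists held to at least 268 bp the ratios were 1.83 and 1.36.

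**Figure D2:**
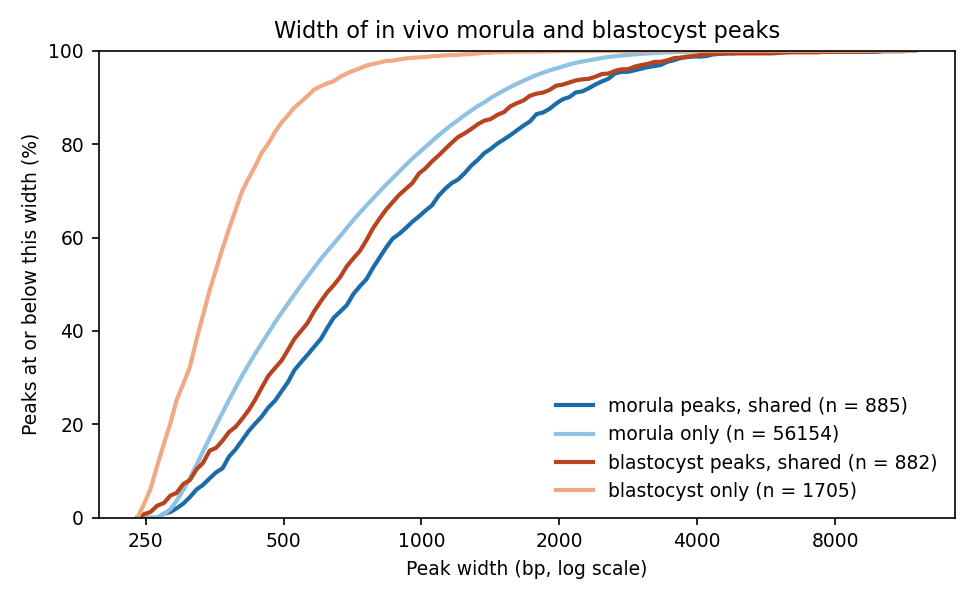
Cumulative share of peaks (vertical axis, %) at or below each width (horizontal axis, bp, log scale) for the 4 classes of in vivo peaks. The blastocyst only curve lies far to the left of the others, with a median of 348 bp against 548 to 740 bp.

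The share of blastocyst peaks with a morula peak climbed with their width. It was 13.6% (interval 11.8% to 15.6%) of the 1338 peaks under 400 bp, 42.8% (39.5% to 46.2%) of the 878 from 400 to under 800 bp, 83.7% (78.7% to 88.0%) of the 264 from 800 to under 1600 bp and 96.3% (90.7% to 99.0%) of the 107 of 1600 bp or more. Only 4 blastocyst peaks of that last class were absent from the morula list. Wide peaks overlap other peaks more readily by their length alone, and the part of this in the shares was not tested. In the morula list the same width classes had shares of 0.836%, 1.52%, 1.84% and 3.60%. Wide morula peaks were seldom matched by a blastocyst peak, and wide blastocyst peaks nearly always by a morula peak. The morula shares are bounded by list length, with 4245 morula peaks of 1600 bp or more and 2587 blastocyst peaks of any width. The difference between the directions therefore cannot be told apart from list length.

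Morula only peaks are by definition in the in vivo morula list and not in the in vivo blastocyst list. The widest of them were mostly found in unlabelled morulae and at day 14 too, and not in unlabelled blastocysts. The unlabelled blastocyst list is short, with 3397 peaks of a median width of 230 bp. Of the 4092 morula only peaks of 1600 bp or more, 4038 (98.7%) had a peak in unlabelled morulae, 3390 (82.8%) in 16-cell embryos, 2584 (63.1%) in 8-cell embryos and 3504 (85.6%) at day 14, whereas 0 had one in unlabelled blastocysts. From 800 to under 1600 bp the shares were 89.0% in unlabelled morulae, 0.0758% (10 of 13196) in unlabelled blastocysts and 68.7% at day 14. Under 400 bp they were 34.3%, 0.232% and 30.7%. The widest lay on chromosome 15 from 34211499 to 34218603 (7105 bp) and on chromosome 9 from 13226380 to 13233372 (6993 bp), each with a peak in 8-cell and 16-cell embryos, unlabelled morulae and day 14 embryos. Next came chromosome 8 from 98839124 to 98845346 (6223 bp), with the same lists except the 8-cell list.

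Over the whole in vivo morula list, 28517 peaks (50%) had a day 14 peak. Of those, 27625 (96.9%) were in neither blastocyst list. Such absence was common to the whole morula list, of which 98.4% had no in vivo blastocyst peak. Morula peaks with a day 14 peak had an in vivo blastocyst peak slightly more often, at 2.76% against 1.55% of the whole list. Peaks present in both morula lists and at day 14 and in neither blastocyst list numbered 22295, or 39.1% of the in vivo morula list, and 9675 of them (43.4%) were in the 8-cell and 16-cell lists too. Both blastocyst lists are short, with 2587 and 3397 peaks, and a region absent from them is one without a listed peak, which is not shown to be closed.

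The 15205 morula only peaks in no other list were narrow, with a median of 393 bp and a widest peak of 1997 bp, on chromosome 20 from 15754077 to 15756073. Next came chromosome 21 from 45624384 to 45626280 (1897 bp) and chromosome 10 from 58666981 to 58668869 (1889 bp).

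Blastocyst only peaks of greater width were found more often elsewhere too. Day 14 embryos had a peak at 19% of those under 400 bp, 34.1% of those from 400 to under 800 bp and 81.4% of the 43 from 800 to under 1600 bp. In unlabelled blastocysts the shares were 12.6%, 23.7% and 67.4%, and in unlabelled morulae 8.91%, 21.9% and 51.2%. The 4 widest were too few for a share.

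**Figure D3:**
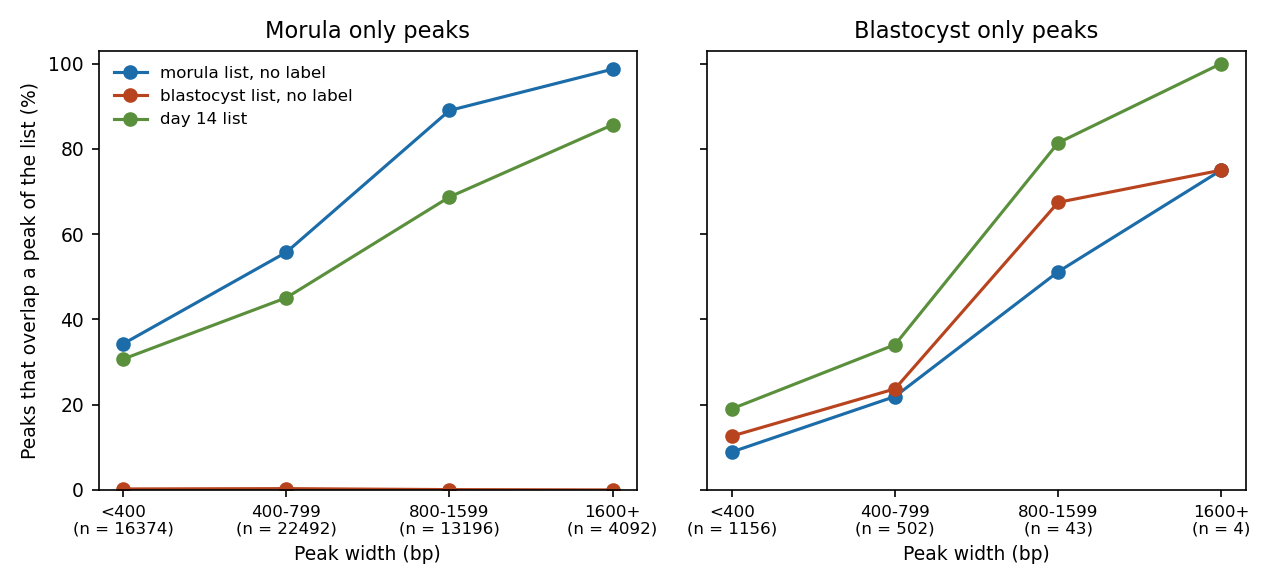
Share of morula only (left) and blastocyst only (right) peaks that overlap a peak of the morula and blastocyst lists without the in vivo label and of the day 14 list (vertical axis, %), by peak width in bp with the number of peaks in each class. For morula only peaks the morula and day 14 shares reach 98.7% and 85.6% while the blastocyst share stays below 0.31%. The last point on the right rests on 4 peaks.

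The widest blastocyst only peak lay on chromosome 1 from 145352041 to 145355128 (3088 bp), with peaks in 2-cell and 8-cell embryos, unlabelled morulae and blastocysts and day 14. It was followed by chromosome X from 58349895 to 58351905 (2011 bp), found in GV oocytes, 4-cell embryos, unlabelled blastocysts and at day 14, and by chromosome 1 from 145399589 to 145401445 (1857 bp), found in all embryo lists but the in vivo morula list. These 3 were thus missing from the in vivo morula list and present in 4 to 7 other lists. Those found nowhere else were narrower. The widest of the 1173 were on chromosome 12 from 76675995 to 76677111 (1117 bp), on chromosome 23 from 25910956 to 25911936 (981 bp) and on chromosome 7 from 9904374 to 9905222 (849 bp). The nearest morula peak was at a median distance of 19 kb from a blastocyst only peak. It lay within 1 kb for 164 of them (9.62%) and within 10 kb for 657 (38.5%).

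Where peaks were shared, their extents were not always alike. The 917 overlapping pairs had centres 91.5 bp apart at the median, a distance that the overlap rule itself keeps small. Median widths in the pairs were 762 bp for morula and 667 bp for blastocyst peaks, and 592 pairs (64.6%) overlapped by at least 50% of both peaks. Overlaps were mostly one to one, with 851 of the 882 blastocyst peaks meeting a single morula peak. Bases in overlaps made up 44.7% of the blastocyst list and 1.54% of the morula list. The pairs fell into 2 kinds when divided by recurring regions. For the 529 pairs in recurring regions the blastocyst peak was the wider one at the median, 823 bp against 735 bp, and 76.4% of pairs overlapped by 50% of both. For the 388 pairs elsewhere the morula peak was wider, 784 bp against 485.5 bp, the blastocyst peak lay wholly inside it in 160 pairs (41.2%), and 48.5% overlapped by 50% of both.

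The widest shared peaks all lay on chromosome 17, near 25 Mb and near 51 Mb. The widest of the morula list ran from 25033165 to 25044772 (11608 bp) and held 2 blastocyst peaks, from 25033167 to 25035026 (1860 bp) and from 25035294 to 25044649 (9356 bp). The widest of the blastocyst list ran from 50865693 to 50875751 (10059 bp) and matched a morula peak from 50865764 to 50875640 (9877 bp). Another morula peak from 50909479 to 50915752 (6274 bp) met a blastocyst peak of 6035 bp, and a blastocyst peak from 50929028 to 50936590 (7563 bp) met 2 morula peaks of 3848 and 3587 bp. Each of the 3 widest shared peaks of either list overlapped a peak of every embryo list and of neither oocyte list. At both stages these domains were thus of nearly the same extent, in lists that differ 22.0 times in length.

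A part of the blastocyst peaks was gathered in a few places. In fixed windows of 1 Mb, the 10 fullest windows held 406 of the 2587 blastocyst peaks (15.7%, interval 14.3% to 17.2%) and the 10 fullest of the morula list held 1.55% of its peaks. Without recurring regions the blastocyst share was 8.44%. Such a share depends in part on the length of the list. Among sets of blastocyst peaks of more similar size, the share in the set's own 10 fullest windows was 29.3% of the 882 shared peaks, 31.2% of the 532 blastocyst only peaks found in another list and 4.26% of the 1173 found in no other list. For all 1705 blastocyst only peaks it was 10.1%. The 2 sets with peaks in further lists thus had the higher shares, with and without a morula peak in vivo.

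The fullest blastocyst window, on chromosome 29 between 30 and 31 Mb, held 63 blastocyst peaks, 34 shared and 29 not, beside 41 morula peaks. On chromosome 1 between 145 and 146 Mb there were 60, 20 shared and 40 not, the largest number of blastocyst only peaks in any window. On chromosome 14 between 0 and 1 Mb there were 60, of which 42 were shared. Chromosome 17 between 51 and 52 Mb had 56 (39 shared) and chromosome 6 between 6 and 7 Mb had 41 (35 shared). Every one of these 5 windows had peaks in GV oocytes, 2-cell, 4-cell and later embryos too, and the first 3 each had 116 to 129 peaks in unlabelled blastocysts. These 5 windows were rich in morula peaks as well, with 41 to 59 each, but were not the fullest of the morula list. The fullest morula window, on chromosome 5 between 57 and 58 Mb, had 128 morula peaks and 1 blastocyst peak. The next 4, on chromosome 10 between 21 and 22 Mb and between 65 and 66 Mb, on chromosome 5 between 101 and 102 Mb and on chromosome 6 between 16 and 17 Mb, had 84 to 90 morula peaks, 0 or 1 blastocyst peak and no peak in unlabelled blastocysts.

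**Figure D4:**
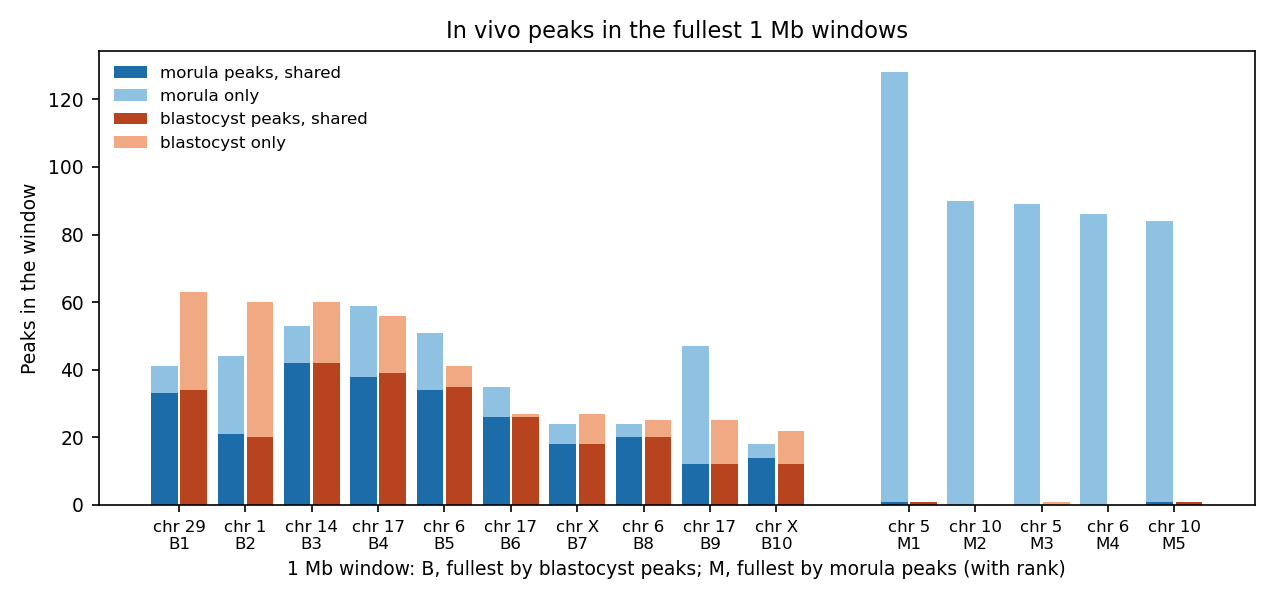
Number of in vivo peaks (vertical axis) in the 10 windows of 1 Mb with the most blastocyst peaks (B1 to B10) and the 5 with the most morula peaks (M1 to M5), split into shared and unshared peaks. Windows B1 to B10 hold 22 to 63 blastocyst peaks, and windows M1 to M5 hold 84 to 128 morula peaks with at most 1 blastocyst peak.

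Inside the 10 fullest blastocyst windows 258 of 406 blastocyst peaks (63.5%, interval 58.7% to 68.2%) were shared with the morula, and outside them 624 of 2181 (28.6%, interval 26.7% to 30.6%). Blastocyst only peaks inside the windows recurred far more than those outside. Of the 148 inside, 72.3% were in the unlabelled blastocyst list and 88.5% at day 14, against 12.2% and 19.2% of the 1557 outside. The windows were chosen by in vivo blastocyst counts, and they also held 18.7% of the unlabelled blastocyst peaks. Overlap is more likely where peaks are dense, and the part of this in the shares was not tested. Across all 2678 windows the counts of morula and blastocyst peaks had a Pearson r of 0.0928 and a Spearman rho of 0.0730. Between the 2 blastocyst lists r was 0.818 and rho 0.474, and between the 2 morula lists r was 0.872 and rho 0.858. Without the 10 windows the blastocyst r was 0.605. These are descriptions over windows, which share the build, its repeats and its gaps.

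By chromosome, shared peaks were densest on 17 (4.09 times the mean of the class), 29 (2.93 times), X (2.57 times), 14 (2.35 times) and 27 (2.19 times), and sparsest on 20 (0.168 times) and 12 (0.199 times). Several of these densities rested in part on the 10 windows. With them left out, the density was 1.47 times on 17, 1.35 times on 29 and 1.22 times on 14, and on 6 it was 0.687 times against 1.87 times with them. Chromosome 27, which held none of the windows, then had the highest density (3.09 times), followed by X (2.81 times) and 8 (2.29 times). Blastocyst only peaks were densest on 1 (1.78 times) and 7 (1.70 times) and sparsest on 25 (0.182 times), 13 (0.204 times), 19 (0.219 times) and 11 (0.233 times). Without the 10 windows chromosome 7 led (1.86 times), chromosome 1 had 1.53 times the mean and chromosome 29 had 0.472 times against 1.30 times with them. Morula only peaks varied less, from 0.351 times on X to 1.34 times on 10.

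The X chromosome, which makes up 5.59% of the span, held 14.4% (interval 12.1% to 16.9%) of shared blastocyst peaks, 6.86% (5.71% to 8.17%) of blastocyst only peaks and 1.96% (1.85% to 2.08%) of morula only peaks. In the lists without the label the corresponding shares were 20.6%, 5.87% and 4.10%, in the same order. The sex of the pooled embryos is not given, and its part in these shares was not tested. On chromosomes 18, 19 and 25, which are gene-dense in cattle, the density of morula only peaks was 1.04 times that on the other chromosomes. Shared blastocyst peaks had 0.472 times that density there and blastocyst only peaks 0.249 times, the latter with 29 of 1705 peaks. Without the 10 windows these were 0.676 and 0.273 times.

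**Figure D5:**
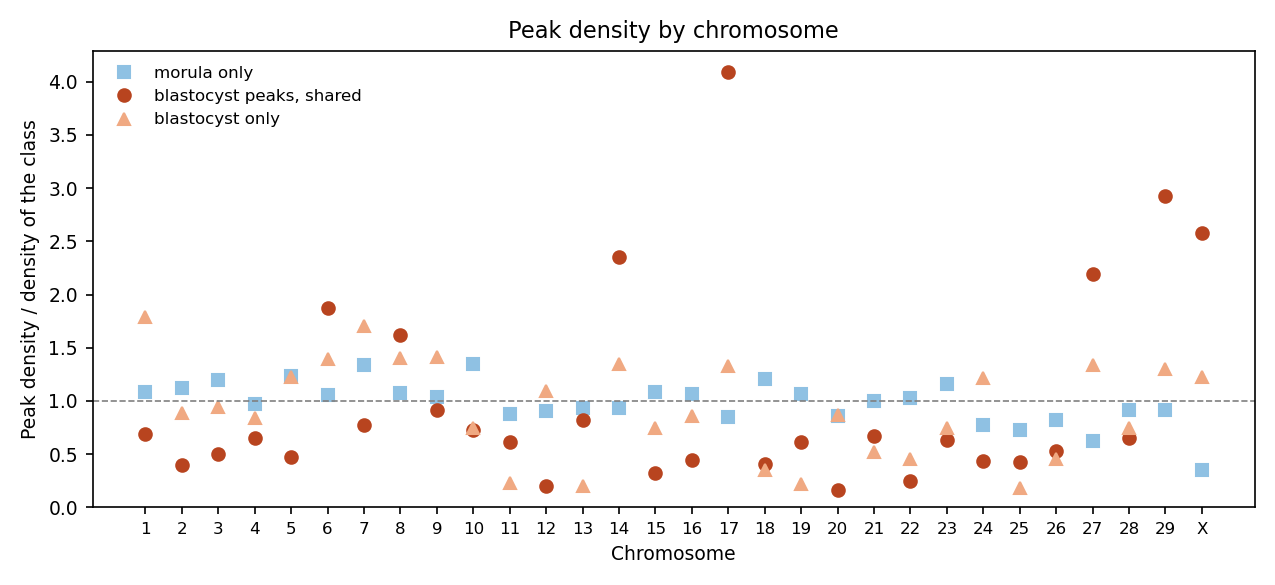
Peak density on each chromosome divided by the density of the same class over all chromosomes (vertical axis, 1 marks the class mean) for morula only, shared blastocyst and blastocyst only peaks. Shared peaks stand out on chromosomes 17 (4.09 times), 29 (2.93 times) and X (2.57 times), and morula only peaks are low on X (0.351 times).

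Shared peaks also lay more often near the starts of the autosomes, mostly through 1 window on chromosome 14. Cattle autosomes are acrocentric, with the centromere at one end. The first 2 Mb of the 29 autosomes, 2.31% of their span, held 9.01% of the autosomal shared blastocyst peaks (68 peaks, 42 of them in the first 1 Mb of chromosome 14), 2.20% of the blastocyst only and 1.46% of the morula only peaks. At the last 2 Mb the shares were 3.84%, 0.630% and 1.63%.

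The lists without the label allowed the in vivo classes to be read in a second pair of lists from the same stages. Of the shared blastocyst peaks, 564 (63.9%, interval 60.7% to 67.1%) were present in both unlabelled lists as well. These 564 had a median width of 805 bp and 98.8% of them had a day 14 peak. Of the morula only peaks, 33862 (60.3%) were in the unlabelled morula list and not in the unlabelled blastocyst list, with a median width of 752 bp and a day 14 peak at 65.8%. Of the blastocyst only peaks, 147 (8.62%, interval 7.33% to 10.1%) were in the unlabelled blastocyst list and not in the unlabelled morula list. A further 150 (8.80%) were in both unlabelled lists, so that their absence from the morula held for the in vivo list alone.

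The 147 regions found in both blastocyst lists and in neither morula list had a median width of 365 bp, and 129 of them (87.8%) had a day 14 peak. They lay in 73 windows of 1 Mb, and 53 (36.1%) were in the 10 fullest blastocyst windows. Those windows were chosen by counts that include these regions, so this share is no separate evidence of clustering. Some were present earlier, with a peak at 48 (32.7%) in 4-cell embryos and at 46 (31.3%) in 8-cell embryos. In all, 10 blastocyst only peaks were in the unlabelled blastocyst list and in no other list. The widest of these lay on chromosome X from 131321286 to 131321741 (456 bp), on chromosome 17 from 51572031 to 51572474 (444 bp) and on chromosome X from 137899032 to 137899471 (440 bp). A further 55 were in the unlabelled blastocyst and day 14 lists and in no other list.

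The 1173 peaks found in the in vivo blastocyst list alone differed in layout from the blastocyst only peaks found in another list. Their median width was 336 bp, 6 of them (0.512%) lay in the 10 fullest windows, and they were scattered over 774 windows. On X there were 31 (2.64%), against 86 (16.2%) of the 532 blastocyst only peaks found in another list. Their density on chromosomes 18, 19 and 25 was 0.212 times that on the others. The 15205 peaks of the in vivo morula list alone had similar traits, so the layout was not particular to the blastocyst. Their median width was 393 bp, 0.158% lay in the same windows and 1.41% on X, and their density on chromosomes 18, 19 and 25 was 0.435 times. A peak that overlaps no other list is also less likely in windows crowded with peaks of those lists. Most of the blastocyst only class thus consisted of narrow, scattered peaks without a counterpart in any list, the unlabelled blastocyst list included.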

How the data were processed

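The deposited values are peak positions. Build UMD3.1 and the tools Bowtie2 2.3, bedtools, HOMER and MACS2 are named in the submitters' processing notes, and the series' design text says that the authors joined the peaks of a stage's libraries. The sources used here give no peak threshold, read shift or merging rule, and each can change peak number and width. Lists were read as BED files and positions are printed counting from 1, a convention the files do not state. Chromosome length was the last position in any list. A peak belonged to the 1 Mb window that held its midpoint.

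Named regions were the 3 widest peaks per class and the fullest windows. Sets built from both pairs of lists were chosen after their values were seen. Members and rules were chosen with earlier results of these data known. Overlap counting recovered all 3 planted counts in simulated lists and equalled bedtools 2.31.1. Python 3.11.15, numpy 2.4.6, scipy 1.17.1 and matplotlib 3.10.9 were used. Alternatives joined peaks closer than 500 bp, set a common minimum width of 268 bp, asked for 50% of both peaks, widened peaks by 250 bp, left out recurring regions or the 10 fullest blastocyst windows, and changed the windows. Classes were drawn again under these alternatives, so class sizes can differ from the main ones. Gene context and sequence were not analysed here.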

Additional observations from a re-analysis of the deposited data

How the results depend on the processing

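In 46 recomputations of the 8 main results, 24 values stayed within the counting interval or, for the ratio of list lengths, within 1.5 times. The other 22 moved beyond these limits. Shares have no direction that could reverse. Only the ratios have one, and none of them reversed. With 50% of both peaks required, 22.9% of blastocyst and 1.04% of morula peaks were shared, the shared over unshared width ratio in blastocysts was 2.03, and the unlabelled lists held 11.4% of blastocyst only and 35.8% of morula only peaks. The common minimum width gave a blastocyst share of 36.4%. Widened peaks gave shares of 36.0% and 1.68%, width ratios of 1.36 in blastocysts and 1.18 in morulae, and 62.6% of morula only peaks in the unlabelled morula list. Without recurring regions, which were chosen in part by the unlabelled blastocyst list, the shares were 20.1% and 0.665%, the blastocyst width ratio 1.39, the blastocyst only peaks in the unlabelled list 7.79% and the peaks in the 10 fullest windows 8.44%. Without the 10 fullest windows they were 28.6% and 1.11%, the width ratio 1.68 and the unlabelled share 12.2%. Windows of 500 kb or 2 Mb put 12.9% or 17.6% of blastocyst peaks in the fullest 10. For the day 14 and X shares and the density on chromosomes 18, 19 and 25, alternatives were added after the data were seen. The densities have no interval, and their limit was 1.5 times. Of the 54 values computed, 46 stayed within the limits and 8 moved beyond them. With 50% of both peaks required, the day 14 share of morula only peaks was 21.5%. The cause of these shifts was not tested. No library could be left out and no paired analysis was possible because each stage is 1 merged list. Depth is unknown, so a peak missing from a list may be one not detected.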
